A study of Mus musculus with 7 samples.

Results

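Type 1 immunity is the arm of the lymphocyte response built around interferon gamma, and 9 of its genes were followed in type 2 innate lymphoid cells (ILC2s) from mouse hearts. They were chosen by symbol from 55335 genes in the deposited tables: the transcription factors Tbx21 and Eomes, the receptor chains Il12rb1, Il12rb2, Ifngr1 and Ifngr2, and the cytokines Ifng, Tnf and Lta. ILC2s are tissue lymphocytes without a rearranged antigen receptor that depend on the transcription factor GATA3 and respond to interleukin 33 through its receptor ST2. RNA was measured in cells sorted as CD45 positive, lineage negative and ST2 positive, in 3 libraries of naive hearts (N1 to N3) and 4 libraries of heart allografts (A1 to A4). The grafts came from Balb/C donors, had been placed in C57BL/6 recipients, a combination that is acutely rejected, and were taken 7 days after transplantation. Each library pooled the cells of 4 to 7 hearts, so that pools were the replicates. The labels give no genotype, age or strain for the naive hearts, and all 7 samples carry the same time entry of 7 days. They also do not say whether the graft's ILC2s came from donor or recipient. The comparison asked how ILC2s in a rejecting graft differ from those of the resting heart.

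In the textbook account, interleukin 12 binds a receptor of 2 chains, IL-12Rβ1 and IL-12Rβ2, and signals through STAT4. STAT4 and the T-box factor T-bet, encoded by Tbx21, then turn on Ifng. Interferon gamma acts on almost all cells through IFNGR1 and IFNGR2 and the kinases JAK1 and JAK2. T-bet opposes GATA3 in helper T cells, and ILC2s exposed to interleukin 12 are known to gain T-bet, IL-12Rβ2 and interferon gamma while type 2 cytokines decline. Natural killer (NK) cells, group 1 innate lymphoid cells (ILC1s) and T cells are the usual sources of interferon gamma.

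Total counts ran from 29107326 to 53044907 per library. Genes with counts numbered 15820, 20254 and 13864 in N1 to N3, and 19235 to 21354 in the allografts. Levels are given as CPM, each library's count scaled to its total. A count of 0 allowed up to 3 counts, or between 0.0566 and 0.103 CPM. This limit, and every fold bound set against it, covers counting error only. It does not cover the fewer genes detected in N1 and N3. N2 stood apart. Its mitochondrial share was 26.5% of counts against 2.04% to 3.11% in the other 6 libraries, and its 10 ILC2 markers summed to 190 CPM against 5790 to 7832 CPM. Il1rl1, the gene of ST2, had 6.79 CPM there against 343 to 756 CPM elsewhere, and Rora 62.6 CPM against 1020 to 2990 CPM. Gata3 had 34.8 CPM there, against 654 and 970 CPM in N1 and N3 and 706 to 876 CPM in the allografts. The changes of the 9 genes are therefore given with and without N2. In the other 6 libraries the highest sum of another cell type's markers was 1270 CPM, of T cell markers, while in N2 the macrophage and monocyte markers, at 324 CPM, exceeded those of ILC2s. The 10 NK and ILC1 markers summed to 0, 59.1 and 55.4 CPM in N1 to N3 and to 70.9 to 105 CPM in the allografts, with 0, 7 and 3 of the 10 genes detected among naive libraries and 9 or 10 in each allograft. The 11 T cell markers summed to 348, 31.1 and 1085 CPM among naive libraries and to 1069 to 1270 CPM in the allografts, with 6 or 7 of the 11 detected among naive libraries and 7 to 11 in the allografts. Most of that sum was Trbc1, Trbc2 and Cd3g, while the defining T cell gene Cd3e stayed at or below 1.24 CPM in every library. The other markers went in both directions. Cd3g had 79.0, 6.0 and 124 CPM in N1 to N3 against 175 to 219 CPM in the allografts. Trbc2 had 182, 11.0 and 363 CPM against 383 to 481 CPM. Trac had 7.8, 5.06 and 10.6 CPM against 12.5 to 19.6 CPM, and Cd247 0, 0.659 and 0 CPM against 4.36 to 13.3 CPM. In these genes every allograft was above every naive library, while Cd3e and Trbc1 overlapped. Cd8a, Cd8b1 and Cd5 had 0 counts in all naive libraries, but Cd8a and Cd5 had 0 counts in A2 and A3 too, and Cd8b1 in A2. Cd4 had 11.6 CPM in N3, 0.721 CPM in A4 and 0 counts in the other 5 libraries, and Cd3d had 32.5 CPM in N3 against 3.57 to 8.64 CPM in the allografts. In bulk RNA, fewer cells of a type and less RNA per cell cannot be told apart.

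**Figure D1:**
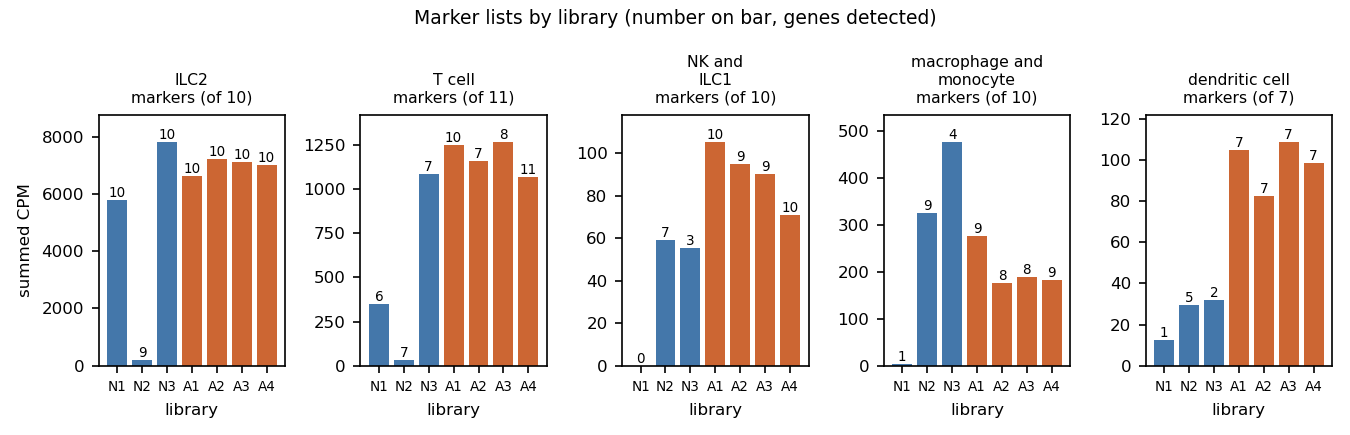
Summed CPM of 5 marker lists in each library (N, naive; A, allograft); the number on each bar is how many genes of the list had at least 1 count. N2 had 190 CPM of ILC2 markers, and N1 had 0 CPM of NK and ILC1 markers.

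The 9 genes fell into 2 kinds. Tbx21, Il12rb2, Ifng and Lta were higher in every allograft library than in every naive library. The receptor chains Il12rb1, Ifngr1 and Ifngr2 had counts in all 7 libraries and overlapped, and Tnf and Eomes, with counts in some libraries only, overlapped too. Groups without overlap and higher in the allografts were thus found for 4 of 9 members (44.4%), against 12.5% of the 17015 genes tested, and groups without overlap and lower for 0 of 9, against 2.15%. N1 held counts for 4 of the 9 members, N2 for 6 and N3 for 5. A1, A2 and A4 held counts for all 9, and A3 for 8.

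None of the 9 members passed an adjusted p of 0.05 in edgeR's quasi-likelihood test over all 7 libraries, where 0.0353% of genes passed. At an unadjusted p under 0.05, 3 of 9 were higher (Tbx21, Il12rb2 and Lta), against 6.41% of genes, and 0 were lower, against 3.86%. Without N2, Ifng and Tbx21 passed the adjusted threshold, against 3.0% of genes passing upward, and 4 of 9 were higher at an unadjusted p under 0.05, against 15.6%. In that comparison 4 of 9 members were higher without overlap, against 21% of genes, and 1, Ifngr1, was lower without overlap, against 7.15%. With DESeq2, Tbx21, Il12rb2 and Lta passed, against 6.93% of genes. With limma on log2(FPKM + 1), Ifng and Lta passed, against 0.447%, and with 0.1 added Ifng, Lta and Tbx21, against 1.18%. The median fitted log2 fold change of the 9 was 3.40, and 2.80 without N2, against -0.01 and 0.23 for all genes tested. All 9 passed the low-count filter, Tbx21 and Il12rb2 through their allograft counts alone. Without N2 the same held for Ifng, so both genes that passed there had 0 counts in N1 and N3 and entered the test only through the group where they were high.

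**Figure D2:**
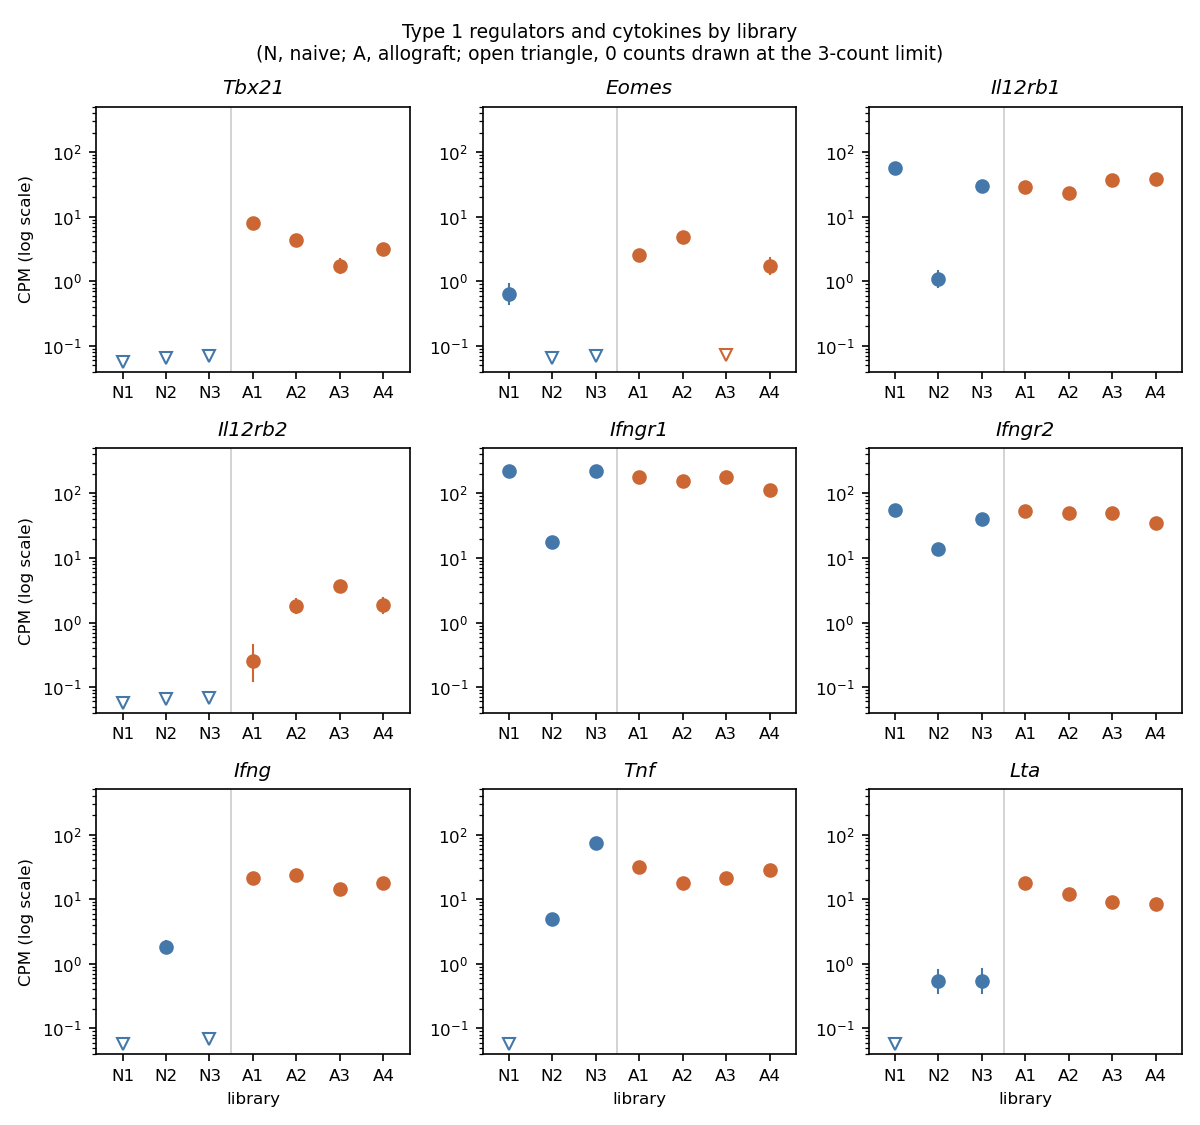
CPM of each gene in each library on a log axis (N1 to N3, naive; A1 to A4, allograft), with 95% Poisson intervals that cover counting error only; open triangles are 0 counts, drawn at the 3-count limit of that library. Tbx21, Il12rb2, Ifng and Lta lie higher in all 4 allografts than in any naive library.

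The 250 bases before the transcription start of these 4 genes are shown because they are the members whose groups did not overlap (RefSeq, GRCm38.p6; 8 of 9 members matched the table, Il12rb1 did not). Capitals mark matches, on either strand, to TTCNNNGAA, the gamma interferon activation site, and to GGGNNNNNCC or its reverse complement, a loose form of the NF-κB site. The windows are chr11:97115332-97115581 on the minus strand, chr6:67376189-67376438 on the minus strand, chr10:118440796-118441045 on the plus strand and chr17:35205352-35205601 on the minus strand, each written 5′ to 3′ along the gene.
Tbx21: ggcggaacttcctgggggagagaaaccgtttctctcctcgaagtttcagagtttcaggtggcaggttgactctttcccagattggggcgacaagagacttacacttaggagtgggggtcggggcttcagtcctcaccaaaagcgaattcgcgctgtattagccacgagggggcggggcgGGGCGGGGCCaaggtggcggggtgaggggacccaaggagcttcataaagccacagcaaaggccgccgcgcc
Il12rb2: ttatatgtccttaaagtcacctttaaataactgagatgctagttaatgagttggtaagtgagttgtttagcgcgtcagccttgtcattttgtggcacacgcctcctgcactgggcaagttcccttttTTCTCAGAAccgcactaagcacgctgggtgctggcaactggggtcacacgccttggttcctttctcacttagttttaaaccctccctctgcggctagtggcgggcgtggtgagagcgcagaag
Ifng: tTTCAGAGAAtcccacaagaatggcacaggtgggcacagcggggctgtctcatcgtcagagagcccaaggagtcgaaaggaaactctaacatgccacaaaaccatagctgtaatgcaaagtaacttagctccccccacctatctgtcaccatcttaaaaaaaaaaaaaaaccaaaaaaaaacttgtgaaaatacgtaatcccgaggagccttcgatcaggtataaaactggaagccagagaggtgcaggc
Lta: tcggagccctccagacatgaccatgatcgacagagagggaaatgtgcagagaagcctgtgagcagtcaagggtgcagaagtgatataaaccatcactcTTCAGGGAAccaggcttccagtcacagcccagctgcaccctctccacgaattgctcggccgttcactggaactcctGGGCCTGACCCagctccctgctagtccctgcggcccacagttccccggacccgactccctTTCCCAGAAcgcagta
The activation site letters occurred in 3 of the 8 member promoters, those of Il12rb2, Ifng and Lta, at 2 places in Lta. They occurred in 7.02% of all 32851 promoters in the table. The NF-κB letters occurred in 5 of the 8, those of Tbx21, Ifngr1, Ifngr2, Tnf and Lta, and in 45.8% of all promoters. The T-box motif GGTGTGA or its reverse complement was in 0 of the 8 windows and in 3.33% of all promoters. These are matches of letters in a short window, and no binding was measured.

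Tbx21 (ENSMUSG00000001444, GRCm38 chr11:97098071-97115331, minus strand), the gene of T-bet, had 0 counts in all 3 naive libraries and 350, 140, 71 and 91 counts in A1 to A4. These were 7.95, 4.32, 1.74 and 3.13 CPM, or 4.28 ± 2.66 CPM (SD, n = 4). Every allograft was above every naive library, and A1 was 4.58 times as high as A3. The allograft level was at least 67-fold above the 3-count limit, taken as the mean over the naive libraries' limits. This bound covers counting error only. The edgeR adjusted p was 0.145, and 0.0446 without N2, with a range of 7.4e-09 to 1 over 17 alternatives, of which 3 passed. Of 5133 genes found in all 4 allografts at a mean of 1 to 10 CPM, 4.66% also had 0 counts in all 3 naive libraries, and 18.2% had 0 in both N1 and N3.

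Tbx21 stayed a small fraction of Gata3. Per length, there were 16.8, 8.94, 3.89 and 5.69 Tbx21 for each 1000 Gata3 in A1 to A4, in units of FPKM, the authors' length-scaled level. With 0 counts of Tbx21 the naive libraries gave no ratio, only limits of 0.138, 3.01 and 0.113 per 1000 in N1 to N3. All 4 allografts were above these limits, and the limit of N2 was loose because Gata3 itself was low there. With 0.1 FPKM added to both genes, the log2 ratio was 2.39 higher in the allografts (exact two-sided permutation p = 0.171). With 1 FPKM added, the difference was -0.13 (exact p = 0.971), so that the sign of the comparison turned with the pseudocount when N2 was included. Without that library the naive mean was -10.78 against -6.92 in the allografts with 0.1 FPKM added, and -7.47 against -6.16 with 1 FPKM added, so the allografts were higher with either. As Tbx21 had 0 counts in N1 and N3, their values hold only the pseudocount and Gata3. The direction without N2 thus restates those zeros and adds no support to them.

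Eomes (ENSMUSG00000032446, chr9:118478212-118486132, plus strand), the second T-box factor and a marker of NK cells and memory CD8 T cells, had 34, 0 and 0 counts in N1 to N3 and 114, 156, 0 and 51 in A1 to A4. The levels were 0.641 CPM in N1 and 2.59, 4.81, 0 and 1.75 CPM in the allografts. The groups overlapped, with 1 allograft and 2 naive libraries at 0. The fitted log2 fold change was 3.40 (SE 2.53, adjusted p = 0.752 in edgeR), and 2.80 (SE 2.55, adjusted p = 0.604) without N2. Without N1, the only naive library with Eomes counts, it was 9.38 (SE 3.49, adjusted p = 0.266), a size that depends on the prior count. The change did not pass in any of 17 alternatives. The predicted gene Gm33460 shares exons with Eomes on the opposite strand and had 28 counts in N1, 0 in N2 and N3, and 10, 4, 11 and 18 in A1 to A4, including 11 in A3 where Eomes had 0. Whether strand was used in counting is not given in the sources used here, so reads from the exons they share cannot be told apart. A3, without Eomes, had the lowest Tbx21 of the 4 grafts.

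The interleukin 12 receptor chains differed in pattern. Il12rb1 (ENSMUSG00000000791, chr8:70808449-70821424, plus strand), the chain shared with the interleukin 23 receptor, had 57.6, 1.1 and 30.1 CPM in N1 to N3 and 28.6, 23.4, 36.9 and 38.4 CPM in the allografts. N1 and N3 lay above or within the allograft range, and N2 lay far under it. Its log2 fold change was 0.08 (SE 0.92, adjusted p = 0.994 in edgeR), and -0.50 (SE 0.39, 0.522) without N2.

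Il12rb2 (ENSMUSG00000018341, chr6:67291318-67376188, minus strand), the inducible chain that recruits STAT4, had 0 counts in the 3 naive libraries and 11, 59, 153 and 54 in the allografts. These were 0.25, 1.82, 3.74 and 1.86 CPM, and the 11 counts of A1 had a 95% Poisson interval of 0.125 to 0.447 CPM. All 4 allografts were above the naive libraries, and the order of the grafts was not that of Tbx21, since A1 was lowest for Il12rb2 and highest for Tbx21. The mean was at least 30-fold above the naive limit. The adjusted p was 0.169 in edgeR, and 0.0842 without N2. It passed in 1 of 16 alternatives, DESeq2 (3.4e-05; range 3.4e-05 to 1). Serbp1 shares exons with Il12rb2 on the opposite strand, and N1 had 27320 counts of Serbp1 and 0 of Il12rb2.

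Both chains of the interferon gamma receptor were present throughout. Ifngr1 (ENSMUSG00000020009, chr10:19591949-19610229, plus strand), the ligand-binding chain, had 223, 17.9 and 223 CPM in N1 to N3 and 181, 153, 177 and 112 CPM in A1 to A4. N1 and N3 were above all 4 allografts, and N2 was below them. The log2 fold change was -0.04 (SE 0.66, adjusted p = 0.996 in edgeR) over 7 libraries and -0.56 (SE 0.26, adjusted p = 0.273) without N2, so the lower level was not past the threshold in either.

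Ifngr2 (ENSMUSG00000022965, chr16:91547072-91565623, plus strand), the signalling chain, had 54.9, 13.7 and 40.7 CPM among naive libraries and 54.2, 49.1, 49.7 and 34.7 CPM in the allografts, which overlapped. Its log2 fold change was 0.26 (SE 0.41, adjusted p = 0.915 in edgeR) and -0.07 (SE 0.31, 0.940) without N2. Per length, Ifngr1 was 4.42, 4.13, 4.72 and 4.26 times as abundant as Ifngr2 in the 4 allografts. The naive libraries spread further, with 5.38, 1.73 and 7.24. N1 and N3 were above the allograft range and N2 below it; this ratio was chosen after the values were seen and was not tested.

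Ifng (ENSMUSG00000055170, chr10:118441046-118445892, plus strand), the cytokine of the type 1 response, had 0, 84 and 0 counts in N1 to N3 and 935, 761, 589 and 522 in A1 to A4. The allograft levels were 21.2, 23.5, 14.4 and 17.9 CPM, a mean of 19.3 ± 3.96 CPM (SD, n = 4), and the naive counts all came from N2 at 1.85 CPM. Each allograft was above each naive library, and the 4 grafts lay within a factor of 1.63. The ratio of mean levels was 31.3, and without N2 the allograft mean was at least 307-fold above the limit. Scaled to Ptprc, the gene of CD45, in place of the total, a choice made after the values were seen, the log2 ratio of mean levels over 7 libraries turned from 4.97 to -0.44, with N2 the highest library. The fitted log2 fold change of 4.39 (SE 2.18) had an adjusted p of 0.579 in edgeR. Without N2 the adjusted p was 0.0234, the lowest of 17 alternatives that ran up to 1, and 3 of them passed. Of 6694 genes found in all 4 allografts at 10 to 100 CPM, 1.17% had 0 counts in both N1 and N3. Gm49751 shares exons with Ifng on the same strand and was not analysed here.

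In the allografts Ifng reached the level of Il13, a type 2 cytokine of ILC2s. Per length there were 1180, 1100, 638 and 726 Ifng for each 1000 Il13 in A1 to A4. N1 and N3, with 674 and 369 counts of Il13 and none of Ifng, had limits of 4.14 and 7.56 per 1000. N2 had the reverse, 84 counts of Ifng and 0 of Il13. All 4 allografts were thus above the limits of N1 and N3. With 0.1 FPKM added, the log2 ratio was 2.73 higher in the allografts over all 7 libraries, and 1.5 higher with 1 FPKM added (exact two-sided permutation p = 0.314 for each; the smallest possible is 0.0286). Il5, another type 2 cytokine gene, was far above Ifng in CPM, at 404 to 581 CPM in the allografts.

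Lta (ENSMUSG00000024402, chr17:35203165-35205351, minus strand) encodes lymphotoxin alpha, a TNF family cytokine of activated lymphocytes. It had 0, 25 and 24 counts in N1 to N3 and 797, 395, 371 and 244 in the allografts, which was at most 0.551 CPM against 18.1, 12.2, 9.08 and 8.38 CPM. The groups did not overlap in CPM, and the ratio of mean levels was 32.6. Scaled to Ptprc, the log2 ratio of mean levels was 0.64 in place of 5.03, and the groups overlapped. Per 1000 Ptprc counts, N2 had 46.9 against 46.0 in A1, too close to rank on 25 Lta counts. The log2 fold change was 4.68 (SE 1.64, adjusted p = 0.343 in edgeR), and 5.36 (SE 1.86, adjusted p = 0.194) without N2. Over 17 alternatives the adjusted p ran from 0.0126 to 1, and 3 passed, with DESeq2 and with limma on log2 FPKM with either pseudocount.

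Tnf (ENSMUSG00000024401, chr17:35199381-35202007, minus strand), whose product is made by lymphocytes and myeloid cells alike, lies 1157 bases from Lta and had another pattern. Its levels were 0, 4.88 and 74.9 CPM in N1 to N3 and 31.6, 17.8, 21.5 and 28.7 CPM in the allografts. The naive libraries spanned both sides of the allografts, with N3 more than any graft and N1 at 0 counts. The log2 fold change was -0.19 (SE 1.69, adjusted p = 0.992 in edgeR). It was -0.66 without N2 and 2.81 without N3, so that its sign turned with the library left out. Per length, Tnf was 7.53 and 115 times as abundant as Lta in N2 and N3, and 1.47, 1.23, 2.0 and 2.89 times in the 4 allografts. The allografts were closer to parity than either naive library with counts of both; this ratio was chosen after the values were seen and was not tested. The 10 macrophage and monocyte markers summed to 2.49, 324 and 476 CPM in N1 to N3 and to 176 to 276 CPM in the allografts. The order of the naive sums was that of Tnf, but it rested on Lyz2, at 2.49, 183 and 432 CPM. Every other marker with naive counts was higher in N2 than in N3, such as Csf1r (26.2 and 11.0 CPM) and C1qb (47.6 and 22.9 CPM). N1 to N3 held counts for 1, 9 and 4 of the 10 markers. The part of macrophages and monocytes in the Tnf values was not tested.

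**Figure D3:**
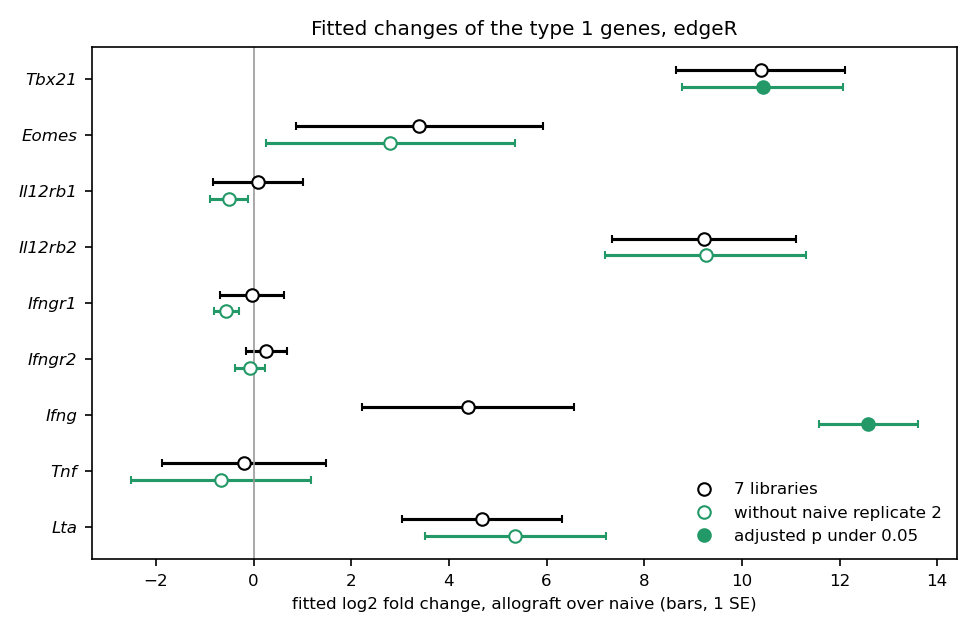
Fitted log2 fold change, allograft over naive, of each gene with 1 SE, over 7 libraries and without N2; filled points have an adjusted p under 0.05. Only Tbx21 and Ifng are filled, and only without N2; where all naive libraries were at 0 the fitted size depends on the prior count and is no bound.

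The order of levels per length changed mainly through the cytokines. In the allografts the median was 50.4 FPKM for Ifngr1, above the range of every other member. Tnf (13.3), Ifng (13) and Ifngr2 (11.4) followed and overlapped, then Il12rb1 (6.9) and Lta (6.66), whose ranges also overlapped. Lta was clear of Tbx21 (1.29), which overlapped with Eomes (0.442), and Eomes with Il12rb2 (0.415). In the naive libraries Ifngr1 (68.6), Ifngr2 (9.54), Il12rb1 (6.49) and Tnf (2.73) led, Lta had a median of 0.35 FPKM, and the medians of Tbx21, Eomes, Il12rb2 and Ifng were 0. All neighbours in the naive order overlapped, with N2 the lowest library for each receptor chain that was detected.

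**Figure D4:**
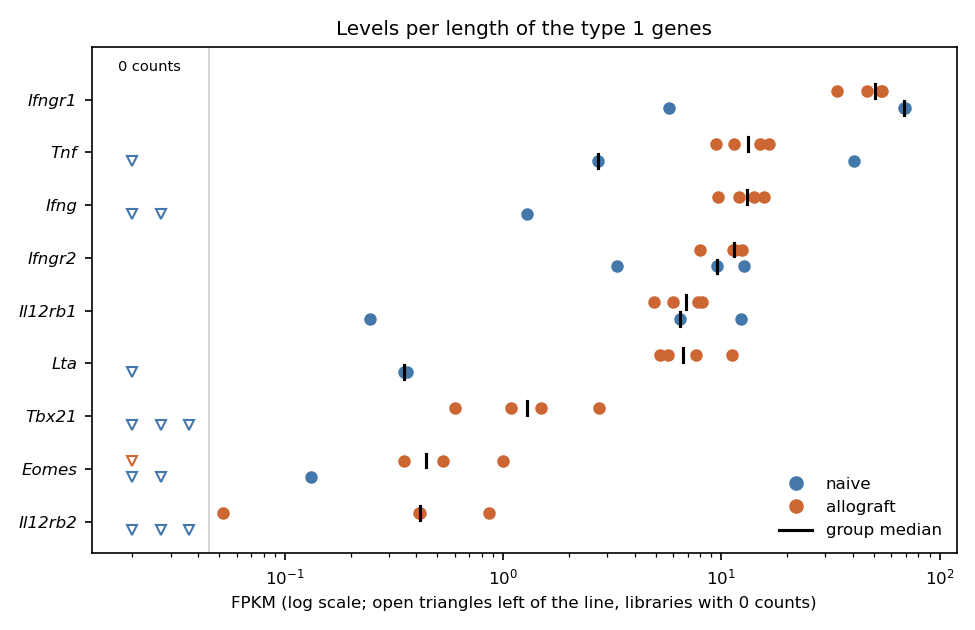
FPKM of each gene in every library on a log axis, ordered by allograft median; black bars are group medians and open triangles left of the grey line are libraries with 0 counts. Ifng and Tnf reach the level of Ifngr2 in the allografts, and Ifngr1 is highest in both groups by its median.

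The genes that varied most like Tbx21 over the 7 libraries, by Pearson's r of log2(CPM + 1) among 4850 genes with an average log2 CPM of at least 5, were Chic2 (0.983), Cirbp (0.976), Edf1 (0.969), the immunoglobulin heavy chain gene Igha (0.962) and Stx11 (0.958). Those most like Ifng were the immunoglobulin light chain gene Igkc (0.992), Hspe1 (0.991), Cst3 (0.986), the invariant chain gene Cd74 (0.986) and Cd83 (0.983). The 7 points share 2 groups and differ in library quality, so these values describe the libraries only. Igha had 0 counts among naive libraries and 153 CPM in A1 against 42.0 to 54.4 CPM in the other grafts. Igkc had at most 14.1 CPM among naive libraries and 351 to 485 CPM in the allografts. The 7 B cell markers summed to 117, 23.7 and 0 CPM in N1 to N3 and to 93.9 to 152 CPM in the allografts.

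Other genes of the pathway were taken from 5 lists of 55 genes, of which 53 were tested. None passed the adjusted threshold over 7 libraries. At an unadjusted p under 0.05, 4 were higher, against 6.41% of genes, and 2 lower, against 3.86%. Groups did not overlap for 16 of the 53 in the upward direction, against 12.5% of genes, and for 0 downward, against 2.15%. The median log2 fold change was 0.70, or 0.43 without N2, against -0.01 and 0.23 for all genes. Without N2, 4 of 54 passed upward (Il12b, Il18, Tnfrsf1a and Fasl), against 3.0% of genes, and 1 passed downward (Irf1), against 0.0998%. The 4 upward calls rest on 0 counts in both N1 and N3. A positive fitted change over 7 libraries was not particular to these lists. Every ILC2 marker except Icos (-0.30) had one too, such as Il1rl1 (0.82, and 0.23 without N2) and Ptprc (0.88, and 0.31).

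Among 7 type 1 transcription factors, all had a positive fitted change. The median was 0.70 over 7 libraries and 0.19 without N2, against -0.01 and 0.23 for all genes. Zfp683, which encodes the tissue-residency factor Hobit, had 0 counts among naive libraries and 2.43, 4.75, 1.76 and 1.13 CPM in the allografts. Its mean was at least 39-fold above the naive limit (edgeR adjusted p = 0.145, and 0.0502 without N2). Nfil3 had 248, 25.1 and 122 CPM among naive libraries and 257 to 344 CPM in the allografts without overlap (log2 fold change 1.05, adjusted p = 0.642). Zeb2 was at 18.5, 2.09 and 34.7 CPM against 33.7 to 60.2 CPM (1.31, 0.656), and Bhlhe40 at 1210, 400 and 3520 CPM against 2530 to 3220 CPM (0.62, 0.840). Both overlapped.

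Of the interleukin 12 and 18 pathway, 10 of 11 genes were tested. All 10 had a positive fitted change over 7 libraries. The median was 1.17 (1.03 without N2), against -0.01 (0.23) for all genes. At an unadjusted p under 0.05, 2 were higher, against 6.41% of genes. Il12b, the shared p40 subunit of interleukins 12 and 23, is made by dendritic cells and macrophages. It had 0 counts among naive libraries and 21.3, 17.4, 14.6 and 10.7 CPM in the allografts. Its mean was at least 250-fold above the naive limit (edgeR adjusted p = 0.145, and 0.0252 without N2). The 7 dendritic cell markers summed to 12.7, 29.4 and 31.8 CPM in the naive libraries, with 1, 5 and 2 detected, and to 82.6 to 109 CPM in the allografts with all 7 detected. Of 6694 genes found in all 4 allografts at 10 to 100 CPM, 0.209% had 0 counts in all 3 naive libraries, as Il12b did. Flt3 had 0, 1.38 and 0 CPM in N1 to N3 against 16.3 to 27.2 CPM in the allografts. Zbtb46 had 0, 5.06 and 0.895 CPM against 27.2 to 44.3 CPM, and Clec9a 0, 0.44 and 0 CPM against 2.53 to 5.27 CPM. Itgax had 0 counts in the naive libraries, and in these genes every allograft was above every naive library. Xcr1 overlapped, at 12.7, 0 and 30.9 CPM against 13.5 to 25.4 CPM, as did Siglech and Cd209a. Cd209a was highest in N2, at 18.2 CPM against 3.4 to 10.9 CPM in the allografts. The part of these cells in the Il12b values was not tested. Ebi3 had 26.6, 8.99 and 8.44 CPM against 30.1 to 39.6 CPM (adjusted p = 0.462). Il18r1, a chain of the interleukin 18 receptor, had 8.37, 8.2 and 5.96 CPM against 11.9 to 24.3 CPM (log2 fold change 1.18, adjusted p = 0.547). For both, every allograft was above every naive library. Il12a, the p35 subunit of interleukin 12, had at most 1.42 CPM in any library and overlapped (adjusted p = 0.575).

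In the interferon gamma pathway 9 of 10 genes were tested, with a median log2 fold change of -0.20 (-0.16 without N2). Of the 9, 2 were lower at an unadjusted p under 0.05. Irf1, a transcription factor gene induced by interferons, had 150, 42.0 and 142 CPM among naive libraries and 58.1, 48.1, 46.6 and 31.0 CPM in the allografts. N1 and N3 were above every allograft, and the fitted change was -1.38 (SE 0.40, adjusted p = 0.277 in edgeR). Without N2, Irf1 fell by 1.71 with an adjusted p of 0.0437. Socs1, a feedback inhibitor of JAK kinases, had 81.4, 9.47 and 302 CPM against 40.7 to 53.6 CPM (-1.57, adjusted p = 0.619). Irgm1 had 44.0, 57.2 and 18.7 CPM against 9.75 to 26.2 CPM (-1.63, 0.372).

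All 14 genes of the TNF and lymphotoxin pathway were tested. The median log2 fold change was 0.27 (0.39 without N2), against -0.01 (0.23) for all genes. At an unadjusted p under 0.05, 0 were higher, against 6.41% of genes, and 0 lower, against 3.86%. Without N2, 3 of the 14 were higher, against 15.6% of genes, and 0 were lower. Traf1, an adaptor of TNF receptors, had 182, 12.9 and 425 CPM among naive libraries and 686 to 781 CPM in the allografts (1.80, adjusted p = 0.564 in edgeR). Rela, a subunit of NF-κB, had 60.8, 30.2 and 18.0 CPM against 64.4 to 90.9 CPM (0.92, 0.547). In both, the groups did not overlap. Tnfrsf14 was also without overlap, but at no more than 1.75 CPM (adjusted p = 0.572). Traf2 had 17.0, 12.6 and 50.7 CPM against 36.8 to 60.9 CPM and overlapped (0.87, 0.662). Of the receptors, Tnfrsf1b had 76.8 and 46.0 CPM in N1 and N3 and 53 counts in N2, against 79.7 to 95.4 CPM in the allografts, while Tnfrsf1a had 0, 30.0 and 0 CPM against 1.91 to 3.68 CPM.

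The 13 effector and homing genes had a median log2 fold change of 1.32 (0.86 without N2), against -0.01 (0.23) for all genes, and 12 were positive. The chemokine gene Ccl5 had 19.1, 16 and 96.6 CPM among naive libraries and 154 to 177 CPM in the allografts (1.79, adjusted p = 0.342 in edgeR). Gzma, a granzyme, had 174, 11.3 and 57.9 CPM against 185 to 265 CPM (1.44, 0.570). Ccl4 had 2.53, 53.9 and 44.2 CPM against 102 to 117 CPM (1.32, 0.730). Every allograft was above every naive library in these 3 genes, and Gzmb, at 47.4, 4.48 and 0.963 CPM against 39.3 to 74.1 CPM, overlapped (1.49, 0.746). Among the NK and ILC1 markers that lay beside them, Klrb1c had 0, 1.96 and 0 CPM among naive libraries and 10.4 to 20.8 CPM in the allografts, and Ncr1 had 0, 2.37 and 28.8 CPM against 11.4 to 26.8 CPM. Cd244, Klra4 and Klra8 had 0 counts in all naive libraries, as Tbx21 did. Itga1 had 0, 51.1 and 0 CPM against 3.38 to 5.08 CPM and made up most of the sum in N2, and Klra3 had 0 counts in A2 and A3. The part of NK cells, ILC1s or T cells in the Tbx21, Ifng, Il12rb2 and Lta values was not tested.

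**Figure D5:**
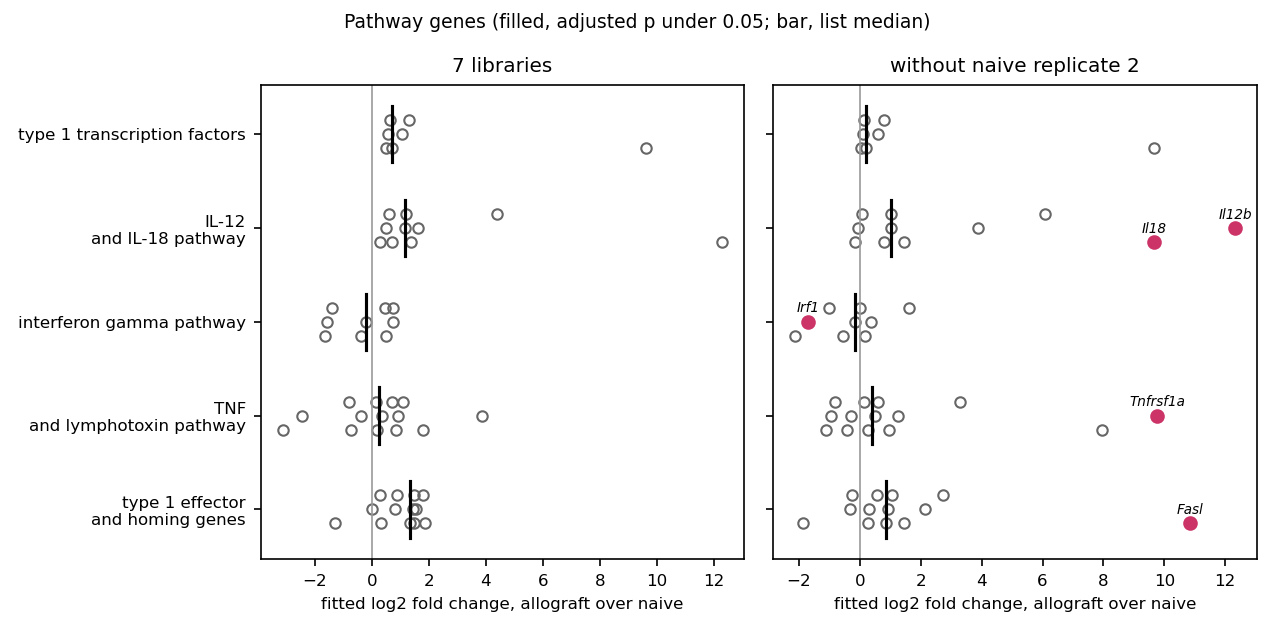
Fitted log2 fold change, allograft over naive, of each pathway gene (1 point per gene) in 5 lists, over 7 libraries and without N2; black bars are list medians and filled points have an adjusted p under 0.05. No gene is filled over 7 libraries, and Il12b, Il18, Tnfrsf1a, Fasl and Irf1 are filled without N2.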

How the data were processed

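RNA of sorted heart ILC2s was measured in 7 libraries. Per the submitters' processing notes, FastQC 0.11.5, STAR 2.5.3a, StringTie 1.3.1c, DESeq2 1.16.1 and the build mm10 were used; which step made which value is not given in the sources used here. The authors deposited whole-number counts per gene and FPKM for the same 55335 identifiers; for 7340 well-counted genes (100 or more everywhere) the 2 tables differed only by a gene and a library factor (SD of the log2 ratio at most 0.00352). Sample titles gave each library's group and number. CPM was computed from the total deposited count. Zeros in the text are counts of exactly 0, for which a limit of 3 counts was used.

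Groups were compared with edgeR 4.0.16 (under R 4.3.3), using TMM, filterByExpr (17015 genes kept) and Benjamini-Hochberg adjustment over all genes at 0.05, without covariates; its script was tested on simulated data. Alternatives used DESeq2 1.42.0, limma 3.58.1 on the deposited counts and on log2 FPKM (pseudocounts 1 and 0.1), other filters (a mean of 50 counts, or none), a replicate block, and leaving out each library. Fold bounds divide the allograft mean by the mean naive limit. Intervals cover counting error only, since reads carried no molecular identifiers. Positions are from GENCODE M21 (GRCm38).

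The members and lists were chosen with earlier results of these data known. Named genes were all members, in each pathway list the 4 with the smallest p (1 of them is not reported here), 6 ILC2 markers, and the 5 genes most correlated with Tbx21 and with Ifng; genes called without naive replicate 2, the other markers and receptors named were added after their values were seen. No 2 libraries agreed within sampling noise (chi-square per degree of freedom at least 44.1).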

Additional observations from a re-analysis of the deposited data

Results flagged for a closer look

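In 40 values examined over the 4 allograft libraries, 2 had a single library far from the other 3, where chance, at about 1 in 20, gives 2.0. The TNF receptor adaptor Traf2 stood at 36.8 CPM in allograft replicate 4, with 58.8 to 60.9 CPM for the rest. The macrophage and monocyte markers summed to 276 CPM in allograft replicate 1 and to 176 to 189 CPM in the others, and allograft replicate 1 also had the highest Tbx21 and Lta. None of the 9 members had such a library.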

How the results depend on the processing

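The number of members past an adjusted p of 0.05 was 0 over 7 libraries, 3 with DESeq2 (Tbx21, Il12rb2 and Lta; background 6.93% of genes), 2 with limma on log2(FPKM + 1) (Ifng and Lta; 0.447%), 3 with limma on log2(FPKM + 0.1) (Ifng, Lta and Tbx21; 1.18%) and 0 to 2 when 1 library was left out. It was 0 with DESeq2 size factors, the robust fit, voom with quality weights, either other filter on counts, the unfiltered FPKM fit and the replicate block. Pathway genes numbered 0 of 53 over 7 libraries and 3 with DESeq2, where 6.93% of all genes passed. They numbered 1 with limma on log2(FPKM + 1) with a filter (background 0.447%) or without, and 2 with 0.1 added (1.18%). With a library left out they numbered 0 to 5 (5 without naive replicate 2, 1, Il12b, without naive replicate 1). All genes numbered 6 over 7 libraries, 1249 with DESeq2, 76 and 201 with the FPKM fits, 28 without a filter on FPKM, 1 with voom, and 0 to 560 with a library left out (0 without any 1 allograft library, 107 without naive replicate 1, 560 without naive replicate 2). With the replicate block, which pairs libraries by number, 0 genes passed; same-numbered libraries did not deviate together (r of 0.065, -0.032 and 0.019), so the numbers are only names. The fitted log2 change of Il12rb1 was -0.015 with DESeq2 and -0.50 to 0.95 with a library left out, and that of Ifngr2 was -0.068 to 0.58. Ifngr1 turned to 0.18 with voom, 0.54 with the replicate block and 0.57, 0.62 and 0.57 with the FPKM fits, and ran from -0.56 to 0.33 with a library left out. Tnf turned to 6.44 with voom, 1.71 with the replicate block and 1.37, 2.52 and 1.37 with the FPKM fits, and ran from -0.78 to 2.81. Tbx21, Eomes, Il12rb2, Ifng and Lta kept a positive fitted change in every alternative fit; Il12rb2 could not be fitted at a mean of 50 counts. The median of all genes itself moved from -0.01 to 0.66 with voom, 0.55 with the block, 0.52 and 0.21 with the FPKM fits and -0.20 with DESeq2 size factors. The causes were not tested. Of 152 member values under alternatives, 18 changed sign and 10 passed the threshold. The 3-count limit is 0.0566 to 0.103 CPM, so a naive level of Tbx21 or Il12rb2 under that is not detectable at this depth.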

Other observations

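Naive replicate 2 had little RNA of leukocytes, with 11.7 CPM of Ptprc, the gene of CD45, against 239 to 739 CPM in the other 6 libraries. Per 1000 counts of Ptprc, a scale chosen after the values were seen, its 84 counts of Ifng came to 158, against 53.9, 31.8, 28.6 and 40.6 in allograft replicates 1 to 4 and 0 in naive replicates 1 and 3. On this scale naive replicate 2 was thus the highest library for Ifng, and it was the highest for Tnf (417, against 133 in naive replicate 3 and 24.1 to 80.2 in the allografts). For Lta it stood at 46.9, against 16.5 to 46.0 in the allografts. With 25 counts of Lta, it could not be ranked against the highest of them. Tbx21 and Il12rb2 remained at 0 counts in all naive libraries, against 3.45 to 20.2 and 0.634 to 7.43 in the allografts. Ifngr2 stood at 1170 in naive replicate 2 and at 66.4 to 229 elsewhere. The log2 ratio of mean levels, allograft over naive, was -0.44 for Ifng on this scale (4.97 in CPM), 0.64 for Lta (5.03), 2.26 for Eomes (3.42), -0.97 for Il12rb1 (0.11), -1.58 for Ifngr1 (0.01), -2.36 for Ifngr2 (0.37) and -1.79 for Tnf (-0.10), so that Ifng, Il12rb1, Ifngr1 and Ifngr2 turned sign. No cause of these values was tested.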
